A study of Mus musculus with 2 samples.

Results

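The genes described here are 10 genes of iron storage, iron transport, heme breakdown and iron withholding in mouse lung. They were chosen by gene symbol as Fth1, Ftl1, Tfrc, Slc40a1, Slc11a1, Slc11a2, Hmox1, Lcn2, Steap4 and Slc25a37, and all 10 were found among the 17943 genes of the table. The RNA came from whole lung of C57BL/6 mice, wild type and 6 to 8 weeks of age, which had received an adenovirus through the nose for 3 days. The virus carried interleukin 17B, a secreted cytokine of the IL-17 family (Adv-IL-17B, 1 library), or was the empty vector (Adv-EV, 1 library). Both groups therefore carried adenovirus, and no library of lung without virus was analysed here. The vector's promoter, the cells it entered and the number of mice behind each library are not stated in the labels, although the design text speaks of triplicates. With 1 library per group no difference has a replicate check, so no test was run. The genes were listed with the values of both libraries known, and each ratio below is a description of these libraries.

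Iron is stored in the cytosol inside ferritin, a hollow shell of heavy and light chains, and enters most cells bound to transferrin. Cells release iron through ferroportin. During inflammation macrophages take up and hold iron, and epithelium and neutrophils secrete proteins that keep it from bacteria. Heme from old red cells and from damaged tissue is opened by heme oxygenase, which frees the iron. Ferritin, ferroportin and transferrin receptor mRNAs carry hairpins called iron-responsive elements, to which iron regulatory proteins bind when iron is scarce. Binding near the start of an mRNA blocks its translation, and binding in the tail of the transferrin receptor mRNA protects that mRNA from decay.

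The hairpins are shown because they separate the genes into classes. The genes were not chosen by hairpin, but such hairpins were already known in several of them, so the numbers found below were foreseeable. The sense strand of GENCODE transcripts was searched for a core made of a C, any 5 bases and the 6-base loop CAGTGN. A match was kept where the 5 bases on either side of the loop could pair with at most 1 mismatch, G-T pairs allowed. Of the 10 genes, 3 held such a core in the 5′ UTR and 2 in the 3′ UTR. Among all protein-coding genes with an annotated UTR of that kind, 0.981% held it in the 5′ UTR and 4.15% in the 3′ UTR. Each sequence below runs 5′ to 3′ over 29 bases, with the loop in capitals, and is from the GENCODE M21 transcripts on GRCm38, the assembly also called mm10.
Fth1 5′ UTR, chr19:9982732-9982760, plus strand: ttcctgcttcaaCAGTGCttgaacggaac
Ftl1 5′ UTR, chr7:45459779-45459807, minus strand: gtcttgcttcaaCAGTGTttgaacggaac
Slc40a1 5′ UTR, chr1:45925465-45925493, minus strand: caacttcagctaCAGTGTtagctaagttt
Tfrc 3′ UTR, chr16:32631219-32631247, plus strand: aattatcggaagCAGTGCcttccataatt
Tfrc 3′ UTR, chr16:32631598-32631626, plus strand: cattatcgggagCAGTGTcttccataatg
Tfrc 3′ UTR, chr16:32631663-32631691, plus strand: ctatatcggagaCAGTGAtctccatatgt
Tfrc 3′ UTR, chr16:32631710-32631738, plus strand: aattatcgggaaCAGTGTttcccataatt
Slc11a2 3′ UTR, chr15:100395153-100395181, minus strand: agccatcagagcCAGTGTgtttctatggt
The windows of the ferritin genes shared 26 of 29 bases and differed by T1G, C4T and C18T, with the Fth1 base first, positions counted from 1 at the 5′ end of the window, and the Ftl1 base last. The third of these lies in the loop. The Slc11a2 match had 1 mismatch in the stem, and the other 7 matches had 0. No match says only that this core was not in the annotated UTRs of Slc11a1, Hmox1, Lcn2, Steap4 and Slc25a37.

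Levels are given in FPKM, which is fragments scaled by transcript length and library size, so that genes of different length can be set side by side. FPKM of all genes summed to 547075 in Adv-IL-17B and 539847 in Adv-EV. Steps in the low values put the depth at about 5520000 fragments in Adv-IL-17B and 5510000 in Adv-EV. Intervals below are exact Clopper-Pearson 95% intervals on fragment numbers estimated from that depth, and they cover counting error only. The lung label was checked with epithelial markers. Sftpc of alveolar type 2 cells (11922 FPKM in Adv-IL-17B, 20844 in Adv-EV), Scgb1a1 of club cells (26446 and 37109 FPKM) and Ager of alveolar type 1 cells (1590 and 2144 FPKM) were abundant in both libraries. The 12 epithelial markers listed summed to 45964 FPKM in Adv-IL-17B and 67252 FPKM in Adv-EV, and 3 of the 12 were higher in Adv-IL-17B.

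Each of the 10 genes had a higher level in Adv-IL-17B than in Adv-EV. The log2 ratio was taken on FPKM + 0.1, and a gene counted as higher or lower when it differed by at least 2-fold. By this rule 3 of the 10 were higher, namely Slc11a1, Hmox1 and Slc40a1, against 3.95% of all 15056 measured genes, and 0 were lower, against 2.68%. Measured genes are those whose mean reached 0.5 FPKM, as it did for all 10. At a limit of 1.5-fold, 8 of the 10 were higher, against 9.44% of measured genes, and 0 lower, against 8.20%. The median log2 ratio of the 10 was 0.84, and that of all measured genes was -0.01 with an interquartile range from -0.24 to 0.23. Because the genes were chosen from these values, their counts are set beside the background and nothing is read from the difference. In bulk tissue, more cells that express a gene and more RNA of it per cell cannot be told apart.

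**Figure D1:**
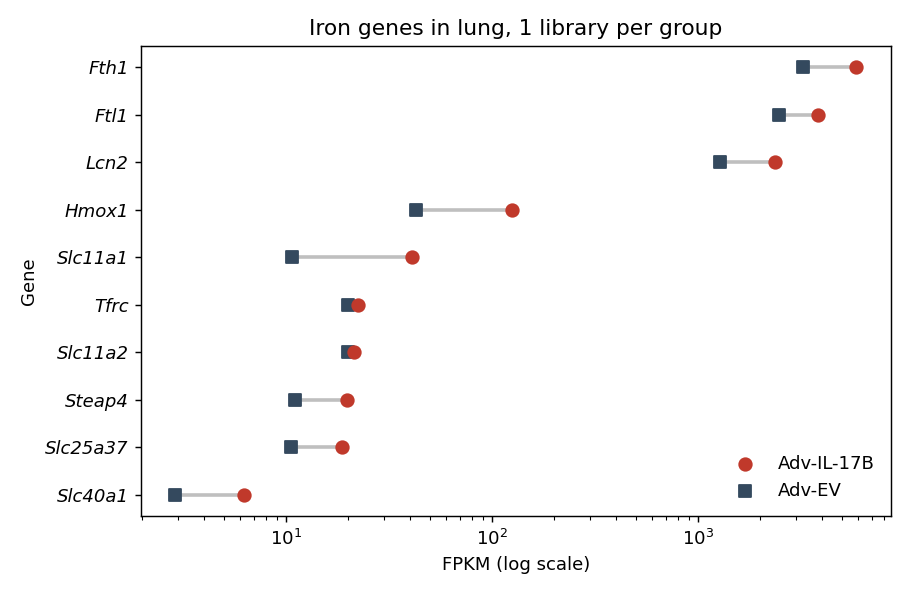
FPKM on a log scale for each of the 10 genes, with circles for the Adv-IL-17B library and squares for the Adv-EV library, joined by a line for each gene. The circle lies to the right of the square for every gene, with the widest gap for Slc11a1 and the smallest for Slc11a2.

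The levels spanned a wide range, 944-fold between the highest and the lowest of the 10 genes in Adv-IL-17B and 1116-fold in Adv-EV. In both libraries Fth1, Ftl1, Lcn2 and Hmox1 led in that order and Slc40a1 was lowest. The gene that changed place most within this order was Slc11a1, the fifth in Adv-IL-17B and the eighth in Adv-EV. Together the 10 genes made up 2.25% of all FPKM in Adv-IL-17B and 1.32% in Adv-EV. With 1 library per group, the order of neighbours such as Tfrc and Slc11a2, or Steap4 and Slc25a37, has no spread to be judged by.

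The ferritin genes were among the most abundant genes of the lung in both libraries. Fth1 encodes the heavy chain, which oxidises iron as it enters the shell, and lies at chr19:9980598-9985098 on the plus strand of GRCm38 (RefSeq NM_010239 and NR_073181). Its level was 5873 FPKM in Adv-IL-17B and 3237 FPKM in Adv-EV, a ratio of 1.81 (interval 1.79 to 1.84). Ftl1 encodes the light chain, which helps form the iron core, and lies at chr7:45457944-45459884 on the minus strand (NM_010240). Its level was 3826 FPKM in Adv-IL-17B and 2465 FPKM in Adv-EV, a ratio of 1.55 (interval 1.52 to 1.59). By level Fth1 was the fourth gene of the Adv-IL-17B library and the eighth of the Adv-EV library, and Ftl1 the seventh and the twelfth.

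The mRNAs of both subunits together came to 9699 FPKM in Adv-IL-17B and 5702 FPKM in Adv-EV, which is 1.77% and 1.06% of the summed FPKM. This was a difference of 3997 FPKM. The heavy chain mRNA exceeded the light chain mRNA in each library, with 1.54 Fth1 per Ftl1 in Adv-IL-17B and 1.31 in Adv-EV. Protein was not measured. Among the 57 genes whose mean reached 1000 FPKM, 5 were past 1.5-fold upward in Adv-IL-17B and 5 downward. The acute phase gene Saa3 and the gene Retnla, named after their values were seen, led the upward ones by ratio, followed by Lcn2, Fth1 and Ftl1 in the third, the fourth and the fifth place. The median log2 ratio of these 57 genes was 0.20. Ferritin genes have pseudogene copies, and how reads that match several places were counted is not stated in the labels, so their levels are uncertain to that extent. The fragment numbers of Fth1 use its longer, non-coding transcript and are too high where most reads came from the shorter one.

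Tfrc and Slc11a2, the genes of iron uptake, had nearly equal levels in both libraries. Tfrc encodes transferrin receptor 1, which takes transferrin-bound iron into endosomes, and lies at chr16:32608920-32632794 on the plus strand (NM_011638). It stood at 22.4 FPKM in Adv-IL-17B and 19.9 FPKM in Adv-EV, a ratio of 1.13 whose interval began just above equality (1.0004 to 1.27). Slc11a2 encodes DMT1, which moves iron out of the endosome into the cytosol, and lies at chr15:100387898-100425072 on the minus strand (NM_001146161 and NM_008732). It stood at 21.3 FPKM in Adv-IL-17B and 19.9 FPKM in Adv-EV, a ratio of 1.07 with an interval of 0.941 to 1.21 that included equal levels. About 605 and 536 fragments lay behind the Tfrc values of Adv-IL-17B and Adv-EV, and about 519 and 485 behind those of Slc11a2. The table gives 1 value for both Slc11a2 transcripts, of which the hairpin was found in NM_001146161, so the forms with and without it cannot be told apart. A protein-coding gene on the opposite strand, Gm5475, overlaps Slc11a2, and the labels do not state how strand was handled.

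Slc40a1 encodes ferroportin, the iron exporter of macrophages and other cells, and lies at chr1:45908068-45926523 on the minus strand (NM_016917). It was the least abundant of the 10, at 6.22 FPKM in Adv-IL-17B and 2.90 FPKM in Adv-EV. About 116 and 54 fragments lay behind these levels, and the ratio was 2.14 (interval 1.54 to 3.02). It lay closest to the 2-fold limit from above, at a log2 ratio of 1.07, and Lcn2 lay closest from below, at 0.88. With a pseudocount of 1 FPKM in place of 0.1, the log2 ratio of Slc40a1 was 0.89 and 2 of the 10 genes were past the limit. Ferroportin mRNA stood at 0.278 per transferrin receptor mRNA in Adv-IL-17B and at 0.146 in Adv-EV.

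Slc11a1 had the highest ratio of the 10. It encodes NRAMP1, which in its functional form pumps iron and manganese out of the phagosome of macrophages and neutrophils and limits bacterial growth there. NRAMP1 protein and its function in the mouse strain used were not tested, so the mRNA level says nothing about pump activity. Slc11a1 lies at chr1:74375195-74386062 on the plus strand (NM_013612). Its level was 40.8 FPKM in Adv-IL-17B and 10.6 FPKM in Adv-EV, a ratio of 3.83 (interval 3.16 to 4.66) on about 522 and 136 fragments. Of the 15056 measured genes, 172 had a higher log2 ratio. Its paralog Slc11a2 had a ratio near 1, so that Slc11a1 stood at 1.92 per Slc11a2 in Adv-IL-17B and at 0.534 in Adv-EV.

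Slc11a1 is a gene of phagocytes, and markers of such cells differed between the same libraries. For the counts that follow, 3.95% of all measured genes passed 2-fold upward and 2.68% downward. Of the 14 measured neutrophil markers 5 passed 2-fold upward in Adv-IL-17B and 0 downward, and their median log2 ratio was 0.91. The summed level of all 15 in the table was 745 FPKM in Adv-IL-17B and 434 FPKM in Adv-EV. The 5 were the receptor genes Csf3r (39.5 and 12.9 FPKM), Il1r2 (11.0 and 3.20) and Trem1 (4.77 and 1.60) and the protease genes Mmp8 (13.3 and 4.90) and Mmp9 (14.2 and 7). Of the 14 measured markers 11 were higher in Adv-IL-17B, while Camp, Ngp and Mpo, named after their values were seen, were lower. Camp stood at 11.9 FPKM in Adv-IL-17B and 20.1 FPKM in Adv-EV (interval of the ratio 0.410 to 0.852). Ngp stood at 14.5 and 17.5 FPKM (0.627 to 1.09) and Mpo at 0.63 and 1.12 FPKM (0.240 to 1.36). Elane, under the filter, stood at 0.2 FPKM in Adv-IL-17B and 0.6 FPKM in Adv-EV, on about 1 and 3 fragments. Of 12 markers of monocytes and interstitial macrophages 4 passed 2-fold upward and 0 downward. Their median log2 ratio was 0.72, with a summed level of 1718 FPKM in Adv-IL-17B and 1000.4 FPKM in Adv-EV. Among them were Ly6c2 (285 and 102 FPKM), Fcgr1 (48.2 and 16.7) and Cd68 (156 and 71.9). Of 12 alveolar macrophage markers 0 passed 2-fold upward and 3 downward, with a median of -0.53 and a summed level of 359 FPKM in Adv-IL-17B and 533 FPKM in Adv-EV. The 3 were the scavenger receptor gene Marco (7.23 and 18.9 FPKM), Ear1 (8.02 and 19.1) and Fabp1 (0.77 and 4.65). Fabp1 rested on about 2 and 14 fragments (interval of the ratio 0.0157 to 0.620). Car4 (81.6 and 148 FPKM), named after its values were seen, held part of the summed level of this list. Which cells its RNA came from was not tested. No marker of these 3 lists was at 0 in either library. The part of these cells in the values of Slc11a1 and of the other iron genes was not tested.

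Slc25a37 encodes mitoferrin 1, which carries iron into mitochondria and is best known from red cell precursors, and lies at chr14:69241848-69285112 on the minus strand (NM_026331). Its level was 18.6 FPKM in Adv-IL-17B and 10.6 FPKM in Adv-EV, a ratio of 1.76 (interval 1.5 to 2.07). Its paralog Slc25a28, mitoferrin 2, chosen here after its values were seen, stood at 18.7 FPKM in Adv-IL-17B and 17.9 FPKM in Adv-EV (interval of the ratio 0.835 to 1.32). The mitoferrins were thus nearly equal in Adv-IL-17B, at 0.994 Slc25a37 per Slc25a28, against 0.592 in Adv-EV. Erythroid markers differed the other way. Of 10 measured ones 7 passed 2-fold downward in Adv-IL-17B and 0 upward, against 2.68% and 3.95% of all measured genes. The median log2 ratio of these 10 erythroid markers was -1.51. All 14 listed summed to 3064 FPKM in Adv-IL-17B and 9649 FPKM in Adv-EV. Among the 7 were the globin genes Hba-a1 (1050 and 3855 FPKM), Hba-a2 (463 and 1314), Hbb-bs (1352 and 3853) and Hbb-bt (166 and 558), whose near-identical copies may share reads. The others were Alas2, the red cell enzyme of heme synthesis (8.79 and 25.2 FPKM), the globin chaperone gene Ahsp (0.38 and 4.24) and Slc4a1, the red cell anion exchanger (0.08 and 1.01). Slc4a1 rested on about 2 and 25 fragments (interval of the ratio 0.00916 to 0.320). Ahsp had no transcript length and so no interval. Hbb-b2 was listed at 0 in Adv-EV. Slc25a37 was higher in the library in which erythroid markers were lower, and which cells its RNA came from was not tested. Genes annotated on the opposite strand overlap Slc25a37 and Ftl1, and their reads cannot be told apart without known strand handling.

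Hmox1 encodes heme oxygenase 1, the inducible enzyme that splits heme into iron, carbon monoxide and biliverdin, and lies at chr8:75093621-75100589 on the plus strand (NM_010442). Its level was 126 FPKM in Adv-IL-17B and 42.9 FPKM in Adv-EV, a ratio of 2.93 (interval 2.60 to 3.30) on about 1089 and 371 fragments. Of the measured genes 258 had a higher log2 ratio. By level it was gene number 611 in Adv-IL-17B and 1896 in Adv-EV. Hmox2, the constitutive heme oxygenase, named after its values were seen, stood at 54.6 FPKM in Adv-IL-17B and 47.1 FPKM in Adv-EV (interval of the ratio 1.02 to 1.32). Hmox1 stood at 2.30 per Hmox2 in Adv-IL-17B and at 0.910 in Adv-EV, so the more abundant heme oxygenase gene was Hmox1 in the library given IL-17B and Hmox2 in the library given empty vector.

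Lcn2 encodes lipocalin 2, a secreted protein of epithelium and neutrophils that binds bacterial siderophores and so withholds iron, and lies at chr2:32384633-32388252 on the minus strand (NM_008491). Its level was 2360 FPKM in Adv-IL-17B and 1281 FPKM in Adv-EV, a ratio of 1.84 (interval 1.79 to 1.90). It was the fourteenth most abundant gene in Adv-IL-17B and gene number 33 in Adv-EV, and held 0.431% and 0.237% of the summed FPKM. Steap4 encodes a metalloreductase that reduces iron and copper and is known to respond to inflammatory cytokines, and lies at chr5:7960457-7982213 on the plus strand (NM_054098). Its level was 19.8 FPKM in Adv-IL-17B and 11.1 FPKM in Adv-EV, a ratio of 1.78 (interval 1.49 to 2.13) on about 344 and 193 fragments. Lcn2 and Steap4 thus had similar ratios at levels far apart. Ltf, the gene of the secreted iron-binding protein lactoferrin and chosen after its values were seen, stood at 85.3 FPKM in Adv-IL-17B and 48.1 FPKM in Adv-EV (interval of the ratio 1.62 to 1.95).

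Lcn2 and Steap4 are known targets of inflammatory signalling, so the 250 bases before each RefSeq start were searched on both strands in the RefSeq promoter table (GRCm38.p6), which held 6 of the 10 genes in 8 windows. Hmox1, Slc40a1, Slc11a2 and Slc25a37 were not searched. The RefSeq starts of some windows lie inside the gene as GENCODE places it, by 513 bases for Lcn2, 2048 for the inner window of Fth1 and 202 for that of Tfrc, and within 24 bases of the GENCODE start for the others. A gene was counted where any of its windows held the motif, while the background shares are per window. The NF-kappaB consensus was found in Steap4 and Ftl1, against 3.90% of all 32851 windows, and the STAT motif TTCNNNGAA in Steap4 alone of the 6, against 7.02%. The C/EBP motif TTNNGNAA was found in Fth1, Ftl1, Lcn2, Slc11a1 and Steap4, against 36.8% of all windows, so it is common. The antioxidant response motif TGACNNNGC was found in 0 of the 6 genes searched, which do not include Hmox1, against 10.2% of all windows. The stretches of Steap4 that hold its NF-kappaB and STAT matches are shown, with the motif in capitals, because the gene is a known target of such signalling and they lie before its start in both annotations.
Steap4, NF-kappaB consensus, chr5:7960226-7960275, plus strand: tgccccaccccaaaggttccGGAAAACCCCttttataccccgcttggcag
Steap4, STAT, chr5:7960336-7960384, plus strand: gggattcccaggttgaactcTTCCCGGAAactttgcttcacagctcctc
The NF-kappaB match of Steap4 shown, beside which its window held another, lies on the opposite strand and overlaps a C/EBP match. These are matches of letters and not measured sites.

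Set against the hairpin classes, the 3 genes with a core in the 5′ UTR, Fth1, Ftl1 and Slc40a1, had log2 ratios from 0.63 to 1.07. The 2 genes with a core in the 3′ UTR, Tfrc and Slc11a2, had log2 ratios of 0.17 and 0.09. The 5 genes without a match had log2 ratios from 0.81 to 1.93. The genes with the lowest ratios were thus those with a 3′ UTR core, which are also the genes of iron uptake. The classes hold few genes and their members were chosen from these values, so the order is a description.

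**Figure D2:**
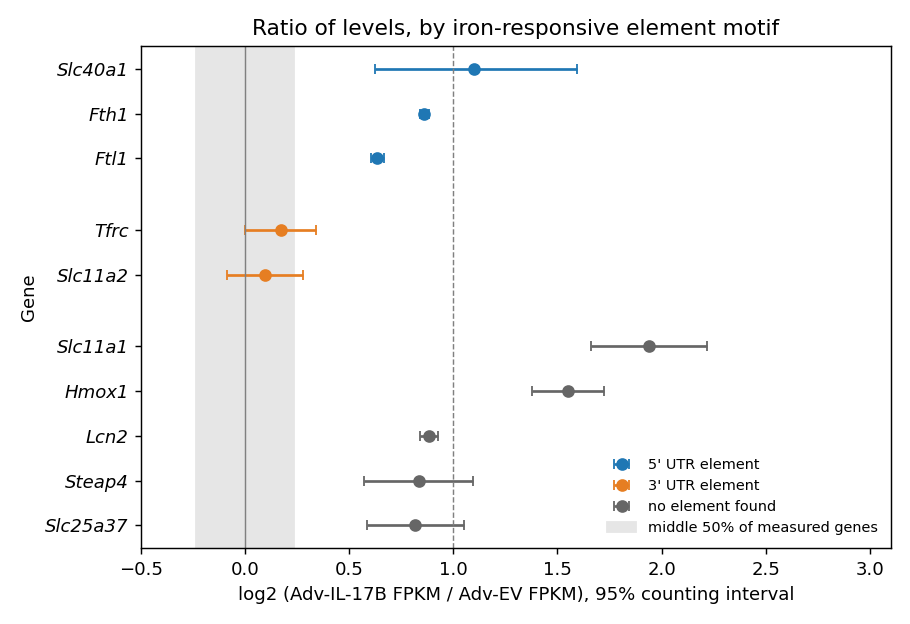
The log2 of the plain FPKM ratio, Adv-IL-17B over Adv-EV, for the 10 genes, grouped by where the iron-responsive core was found; bars are 95% counting intervals, the grey band is the middle 50% of measured genes and the dashed line marks 2-fold. Tfrc and Slc11a2 lie inside the grey band and the other 8 genes lie to the right of it.

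Among all measured genes, 4581 had a higher log2 ratio than Tfrc and 5760 a higher one than Slc11a2. For Ftl1 that number was 1280, for Slc25a37 873, for Steap4 852, for Fth1 787, for Lcn2 751 and for Slc40a1 522. The 5 genes Ftl1, Slc25a37, Steap4, Fth1 and Lcn2 lay between 1.5-fold and 2-fold, although their levels ranged from 14.6 to 4555 FPKM as the mean of both libraries.

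**Figure D3:**
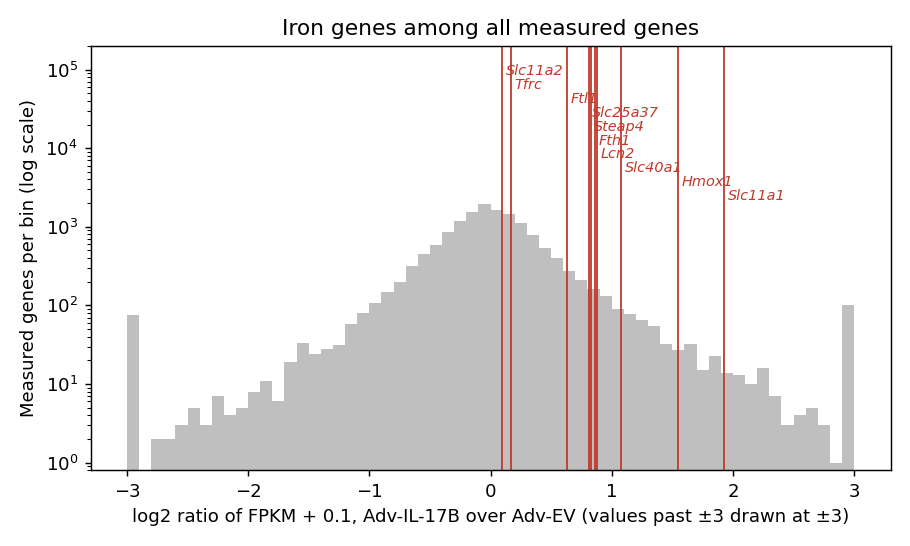
Number of measured genes (log scale) in bins of the log2 ratio of FPKM + 0.1, Adv-IL-17B over Adv-EV, with a line at each of the 10 genes. Tfrc and Slc11a2 lie near the centre of the distribution, while Hmox1 and Slc11a1 lie in its right tail.

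Most other genes of iron and heme handling stayed within 2-fold, as shown by 4 lists drawn from textbook knowledge that together held 58 measured genes. By the 2-fold rule 3 of these were higher in Adv-IL-17B and 3 lower, which is 5.17% in each direction against 3.95% and 2.68% of all measured genes. Their median log2 ratio was 0.05. Of 12 measured genes of iron regulation 0 were higher and 1 lower, with a median of -0.21. The lower one was Hamp, the gene of the iron hormone hepcidin, at 0.47 FPKM in Adv-IL-17B and 1.89 FPKM in Adv-EV, on about 1 and 4 fragments (interval of the ratio 0.00506 to 2.52). The most abundant of this list were the iron chaperone genes Pcbp1 (141 and 137 FPKM) and Pcbp2 (99.0 and 92.1) and the BMP receptor gene Bmpr2 (26.8 and 37.1).

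Of 16 other genes of iron transport, reduction and carriage 1 passed 2-fold upward and 1 downward. Slc39a14, which encodes the metal transporter ZIP14 that takes up iron not bound to transferrin, stood at 9.65 FPKM in Adv-IL-17B and 3.07 FPKM in Adv-EV, a ratio of 3.14 (interval 2.46 to 4.09). Bdh2, known in mice for making a mammalian siderophore, had levels of 0.33 and 1.16 FPKM, or about 2 and 7 fragments (interval of the ratio 0.0289 to 1.5). The most abundant were Trf, the transferrin gene (269 and 186 FPKM), Cp, the gene of the iron-oxidising protein ceruloplasmin (133 and 84.2), and the mitochondrial carrier gene Slc25a39 (72.5 and 77.4). The median log2 ratio of the list was 0.06.

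Of 15 other genes of heme and hemoglobin handling 2 passed 2-fold upward and 1 downward, and the median log2 ratio was 0.12. Spic encodes the transcription factor that mouse red pulp macrophages need and that heme induces. It stood at 2.15 FPKM in Adv-IL-17B and 0.29 FPKM in Adv-EV on about 21 and 3 fragments, a ratio of 7.41 (interval 2.08 to 36.6). Hpx, the gene of the heme-binding plasma protein hemopexin, had levels of 4 and 1.70 FPKM, or about 33 and 14 fragments, a ratio of 2.35 (interval 1.22 to 4.75). Cd163, the macrophage receptor for hemoglobin bound to haptoglobin, had levels of 0.79 and 1.71 FPKM, or about 19 and 42 fragments (interval of the ratio 0.248 to 0.793). Blvrb, which reduces products of heme breakdown and was chosen after its values were seen, stood at 48.7 and 26.8 FPKM (interval of the ratio 1.48 to 2.22). Alas1 and Fech of this list, also chosen after their values were seen, were lower in Adv-IL-17B. Alas1 stood at 91.7 FPKM in Adv-IL-17B and 139 FPKM in Adv-EV (interval of the ratio 0.620 to 0.701). Fech stood at 10.3 and 14.8 FPKM (0.608 to 0.795). At 1.5-fold 3 genes of the list were higher and 2 lower.

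The list of mitochondrial iron-sulfur cluster assembly had 15 measured genes, of which 0 were past 2-fold in either direction, with a median log2 ratio of 0.08. The scaffold gene Iscu stood at 105 FPKM in Adv-IL-17B and 117 FPKM in Adv-EV, the glutaredoxin gene Glrx5 at 63.6 and 59.8 and the chaperone gene Hspa9 at 54.7 and 48.6. Slc25a37, which brings iron to this pathway, had a log2 ratio of 0.81.

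**Figure D4:**
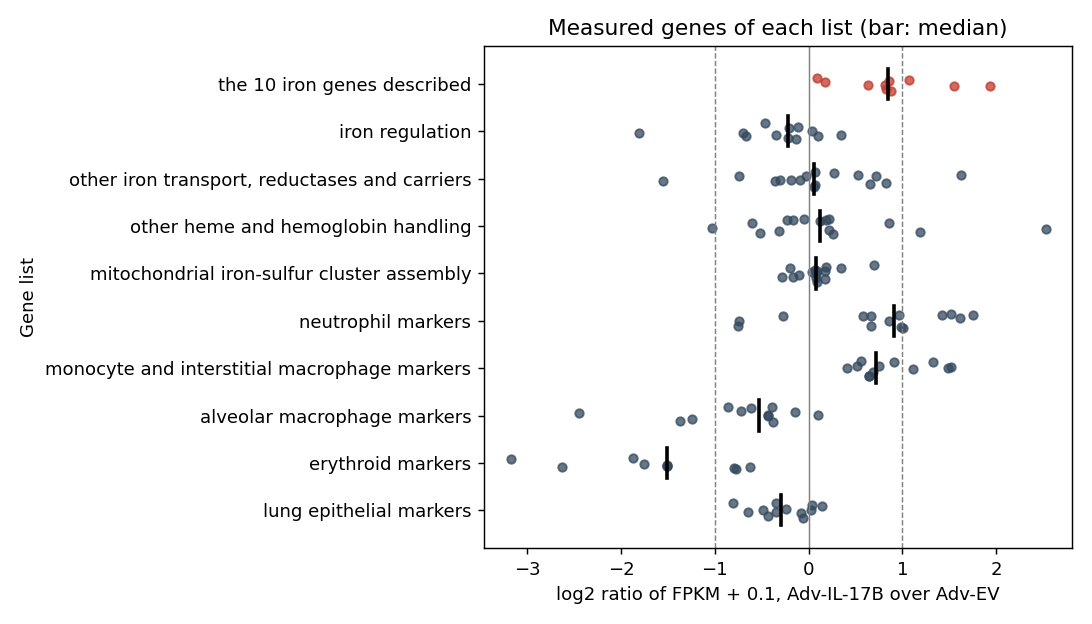
The log2 ratio of FPKM + 0.1, Adv-IL-17B over Adv-EV, of each measured gene in the 10 iron genes and in 9 further lists; bars are medians and dashed lines mark 2-fold. The medians of the 10 iron genes (0.84), the neutrophil markers (0.91) and the monocyte and interstitial macrophage markers (0.72) lie to the right, those of the other iron and heme lists near 0, and that of the erythroid markers (-1.51) to the left. Those of the alveolar macrophage markers (-0.53) and the lung epithelial markers (-0.29) also lie to the left of 0.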

How the data were processed

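The authors deposited 1 table of FPKM values, 1 column per group and rounded to 2 decimals, per the file headers and values. Bowtie2, HISAT and the build mm10 are named in the submitters' processing notes. The program that made the FPKM values, its annotation, filters, strand and multiple mapping are not stated there. The samples were grouped by title. Ratios are log2(FPKM + 0.1), which understates differences of low genes, and folds with intervals are plain ratios. The filter was a mean over both libraries of 0.5 FPKM or more. With 1 library per group there is no test and no p-value, and size rules of 2-fold and 1.5-fold were used. Depth was estimated from steps of FPKM times length in genes with 1 transcript of 400 to 3000 bp, searched from 0.02 to 1.2 FPKM for 1 kb. Lengths, the longest where several, came from GENCODE M21 for 98.3% of genes. The step was 0.181 in Adv-IL-17B and 0.1815 in Adv-EV, and 82.0% and 81.4% of low values came within 0.2 of whole fragments. The estimated fragments summed to 109% of the estimated total in each library, so fragment numbers and intervals are approximate. The scripts were tested on simulated data. The 10 genes, the lists and the motifs were chosen with earlier results of these data known. Named in the text are the 10 genes, the genes of each list past 2-fold and, where fewer than 3 were, its 3 most abundant, with others marked as chosen after their values were seen. Some genes that this rule names are not reported here. Alternatives were pseudocounts of 1 and 0.01, no filter, a mean of at least 1 FPKM, rescaling to TPM, to a median log2 ratio of 0 and to the sum without each library's own 10 most abundant genes, and the 1.5-fold rule. Python 3.11.15, pandas 2.3.3, numpy 2.4.6, scipy 1.17.1 and matplotlib 3.10.9 were used.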

Additional observations from a re-analysis of the deposited data

How the results depend on the processing

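All 10 iron genes kept a log2 ratio above 0 under every alternative run, but only the rescalings could have changed a sign. A pseudocount added to both values cannot do so, and the filters and the 1.5-fold rule leave these ratios as they are. Of 316 values recomputed 285 stayed within their limits, a number that includes ratios of the 10 genes that the filters could not change. No paired analysis was possible because each group has 1 library, and leaving out a library was not possible for the same reason. Slc11a1 (1.84 to 1.94) and Hmox1 (1.48 to 1.55) stayed past 2-fold throughout, and Slc40a1 ranged from 0.89, with a pseudocount of 1 FPKM, to 1.10. Scaling to the sum without the 10 most abundant genes of each library, of which 7 were shared, gave 0.79 for Fth1, 0.56 for Ftl1 and 0.81 for Lcn2. Fth1 was left out of both sums and Ftl1 of the Adv-IL-17B sum alone. The same scaling turned the median of the other iron transport list to -0.0071. The number of measured genes past 2-fold was 352 higher and 176 lower with a pseudocount of 1, 1147 and 1012 with no filter, and 267 lower with a mean of at least 1 FPKM, against 594 and 404. With a pseudocount of 1 the lower genes of the regulation, transport and heme lists came to 0 each and the higher heme genes to 1. With a mean of at least 1 FPKM the lower transport genes came to 0. With no filter 1 iron-sulfur gene and 1 neutrophil marker were lower and 1 erythroid marker higher, and rescaling to TPM also gave 1 lower neutrophil marker. At 1.5-fold 8 iron genes and 1422 of all genes were higher and 1235 lower. At 1.5-fold the lists had 3 lower regulation genes, 4 higher and 2 lower transport genes, 2 lower heme genes and 1 higher iron-sulfur gene. The marker lists had 11 higher and 2 lower neutrophil markers, 9 higher monocyte markers, 6 lower alveolar macrophage markers and 2 lower epithelial markers. Beyond the effect of each setting's own construction, the cause was not tested. Depth limits Hamp, Bdh2, Spic, Slc4a1 and Fabp1, which rested on few fragments in at least 1 library.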
